A study of Mus musculus with 16 samples.

Results

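Cell cycle and DNA replication genes were followed in mouse liver as 38 named genes, of which 36 were measured by a probe set with that gene as its only symbol, among 19938 genes in all. By role, 22 act mainly in mitosis, 11 act in DNA replication or nucleotide supply, and 3 are cyclins of the G1 phase (Ccne1, Ccne2 and Ccnd1). For a gene with several probe sets the one with the highest mean was used. The probe set of Cdkn1a, the cell cycle inhibitor p21, carries another symbol as well, and it was left out by that rule; Ccnb1 is not analysed here. Values are log2 levels, so a difference of 1 is a change of 2 times, and levels of different genes are not compared with each other.

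A cell that leaves rest first raises D-type cyclins, which lift the block that the retinoblastoma proteins place on E2F transcription factors. E2F then drives the replication genes: Cdc6 helps load the MCM helicase onto DNA, Cdc45 joins the helicase when it starts to unwind, Pcna is the sliding clamp of the DNA polymerases, and Rrm2 and Tyms supply nucleotides. The mitotic genes come on later, under the MuvB complex with B-Myb and Foxm1, largely through a short promoter element called the CHR and the CCAAT boxes bound by NF-Y. In adult liver most hepatocytes rest, and dividing cells of any type are few. Gli2 is a transcription factor that relays the hedgehog signal, to which stellate and duct cells of the liver are known to respond.

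The study crossed 2 genotypes with 2 diets. Adult mice, either wild type or with 1 null copy of Gli2 (heterozygous), ate control or high-fat food over 12 weeks. Each of the 4 groups held 4 animals, with 1 array of total liver RNA per animal. The genotype field of the wild-type animals reads Gli1_WT and that of the others Gli2_Het, while the text of the series speaks of Gli2 alone. The sources used here do not give sex, exact age, strain or the deleted part of Gli2, nor name anything that limits the null allele to a cell type. Animals are numbered 1 to 4 within a group in the order of the records, and these numbers pair no animals across groups. The question set by the design is how a reduced dose of a hedgehog gene and the diet act together in fatty liver.

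The 10 hepatocyte markers had a mean level between 13.23 and 13.45 on all 16 arrays, as the liver label requires. The Gli2 probe set read 7.57 ± 0.02 (SD, n = 4) in wild-type control, 7.51 ± 0.08 in wild-type high-fat, 7.70 ± 0.30 in heterozygous control and 7.53 ± 0.07 in heterozygous high-fat livers, and it was not called by genotype (limma adjusted p = 0.447 on control diet and 1.0 on high-fat diet). In the heterozygous control group animal 2 read 8.14 and the others 7.50 to 7.59. Its probes are spread over the whole transcript, which leaves the genotype labels unchecked. Heterozygous control animal 2 stood apart: its correlation with every other array was at most 0.979 (at least 0.995 with some other array for each of the other 15), and the interquartile range of its log2 values was 1.95, against 2.40 to 2.60 elsewhere. Most medians, counts and named genes' values that rest on the heterozygous control group are also given without it, but not all. For group order, overlap and markers that choice was made after seeing the data. In whole liver, fewer cells of a type and less RNA per cell cannot be told apart.

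Promoter sequences were searched because the mitotic and replication classes are known for different elements, and 28 of the 36 measured members matched an entry of RefSeq promoters on mouse build GRCm38.p6. Each window ran from 250 bases before the gene's start to 50 bases after it, and 27025 genes had one. The E2F words searched were TTTCGCGC, TTTGGCGC, TTTCCCGC and TTTGCCGC, the CHR words were TTTGAA and TTCGAA, and the third motif was CCAAT, each on both strands. An E2F word stood in 5 of 10 replication members, in 1 of 17 mitotic members (Cdk1, 5.88%) and in 2.60% of all genes. A CHR word stood in 13 of 17 mitotic members (76.5%), in 3 of 10 replication members and in 21.7% of all genes. CCAAT stood in 14 of 17 mitotic members (82.4%), in 8 of 10 replication members (80.0%) and in 41.1% of all genes. These shares describe letters in a window and do not show binding.

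The 170 bases just before the start are printed for 3 mitotic members (Mki67, Top2a, Ccnb2), whose capitals are CHR and CCAAT words. They are printed for 3 helicase members (Mcm2, Mcm5, Mcm6) too, to set them beside the mitotic promoters. Capitals mark every match on either strand, so a word may appear as its reverse complement. E2F words overlap each other in Mcm5 and Mcm6, where 1 run of capitals holds 2 of them.
Mki67: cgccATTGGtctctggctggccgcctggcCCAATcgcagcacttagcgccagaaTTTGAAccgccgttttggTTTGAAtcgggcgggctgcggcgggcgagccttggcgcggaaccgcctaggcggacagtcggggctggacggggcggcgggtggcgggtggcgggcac
Top2a: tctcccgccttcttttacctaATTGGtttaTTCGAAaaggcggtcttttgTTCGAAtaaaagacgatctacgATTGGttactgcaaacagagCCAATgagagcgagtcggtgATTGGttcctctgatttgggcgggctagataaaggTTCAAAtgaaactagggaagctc
Ccnb2: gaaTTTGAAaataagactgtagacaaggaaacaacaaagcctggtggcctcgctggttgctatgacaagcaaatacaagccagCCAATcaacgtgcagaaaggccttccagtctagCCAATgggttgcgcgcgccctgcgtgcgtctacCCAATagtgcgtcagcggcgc
Mcm2: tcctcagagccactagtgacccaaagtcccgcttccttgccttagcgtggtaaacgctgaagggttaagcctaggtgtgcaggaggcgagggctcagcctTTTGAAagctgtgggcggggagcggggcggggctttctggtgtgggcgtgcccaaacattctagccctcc
Mcm5: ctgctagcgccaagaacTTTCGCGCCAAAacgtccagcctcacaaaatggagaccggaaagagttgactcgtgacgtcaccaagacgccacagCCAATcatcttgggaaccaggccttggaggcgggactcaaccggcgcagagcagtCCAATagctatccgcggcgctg
Mcm6: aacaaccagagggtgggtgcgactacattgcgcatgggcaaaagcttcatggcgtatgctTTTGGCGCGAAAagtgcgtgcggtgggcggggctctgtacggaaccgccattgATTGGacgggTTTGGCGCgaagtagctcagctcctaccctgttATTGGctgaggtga
The stretches lie at chr7:135716380-135716549 on the minus strand for Mki67, chr11:99024190-99024359 on the minus strand for Top2a, chr9:70421555-70421724 on the minus strand for Ccnb2, chr6:88898781-88898950 on the minus strand for Mcm2, chr8:75109339-75109508 on the plus strand for Mcm5 and chr1:128359706-128359875 on the minus strand for Mcm6. Mcm5 and Mcm6 hold E2F words and no CHR word here, Mki67, Top2a and Ccnb2 hold CHR words and no E2F word, and Mcm2 holds a CHR word. The split is not complete among the members: the mitotic gene Cdk1, not printed, holds 1 E2F word and 2 CHR words in its 250 bases before the start.

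Mitotic transcripts had their highest group mean in wild-type livers on control diet for 16 of 22 genes, a position that group held for 12.2% of all genes. Heterozygous control livers held it for 50.4% of all genes, and their animal 2 had a median deviation of 0.12 over all genes. Replication transcripts had theirs in heterozygous livers on high-fat diet for 7 of 11 genes, against 19.3% of all genes. The lowest group mean of a mitotic gene lay in wild-type high-fat livers for 10 genes, in heterozygous control livers for 9 and in heterozygous high-fat livers for 3. For replication genes it lay in wild-type high-fat livers for 5 and in heterozygous control livers for 4. With that animal left out, 19 of 22 mitotic genes had their highest mean in wild-type control livers, against 20.6% of all genes, and 7 of 11 replication genes in heterozygous high-fat livers, against 22.2%. The lowest mitotic means then lay in heterozygous control livers for 11 genes and in wild-type high-fat livers for 9. The lowest replication means then lay in heterozygous control livers for 2 genes and in wild-type high-fat livers for 6. For all genes these shares were 23.1% in heterozygous control and 31.3% in wild-type high-fat livers.

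**Figure D1:**
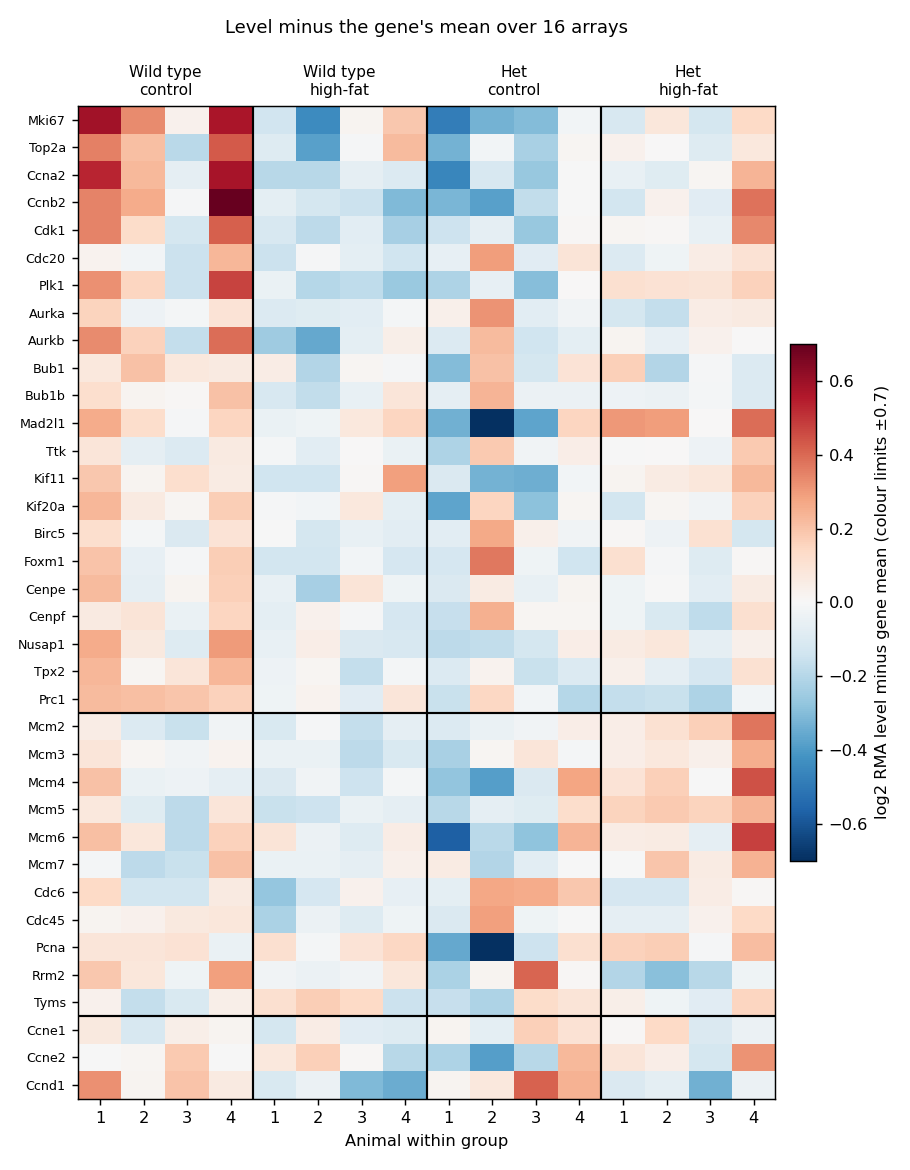
Log2 level of each of the 36 measured members (rows, by class) in each of the 16 animals (columns, by group) minus that gene's mean over all animals, on a colour scale in log2 units. Most mitotic rows are warm in wild-type control animals 1 and 4, and most replication rows are warm in heterozygous high-fat animal 4.

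Per animal, the median deviation of the 22 mitotic genes from their own means was 0.22, 0.08, -0.01 and 0.19 in the wild-type control group and -0.07, -0.13, -0.05 and -0.04 in the wild-type high-fat group. It was -0.16, 0.10, -0.13 and 0.00 in the heterozygous control group and 0.00, -0.01, -0.03 and 0.10 in the heterozygous high-fat group. Wild-type animals on the 2 diets did not overlap, although control animal 3 came close, and it was the lowest of its group for 15 of 22 mitotic genes. Animals 1 and 4 were the highest of that group for 11 and 10 genes. In the heterozygous control group the highest median was that of animal 2, the array that stood apart.

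For the 11 replication genes the median deviation was 0.08, -0.05, -0.11 and 0.06 in wild-type control animals and -0.05, -0.04, -0.06 and -0.03 in wild-type high-fat animals. It was -0.20, -0.06, -0.03 and 0.09 in heterozygous control animals and 0.04, 0.08, 0.03 and 0.24 in heterozygous high-fat animals. Here the wild-type diets overlapped, and the high-fat groups of the 2 genotypes did not. Heterozygous high-fat animal 4 was the highest of its group for 10 of 11 replication genes and 16 of 22 mitotic genes.

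**Figure D2:**
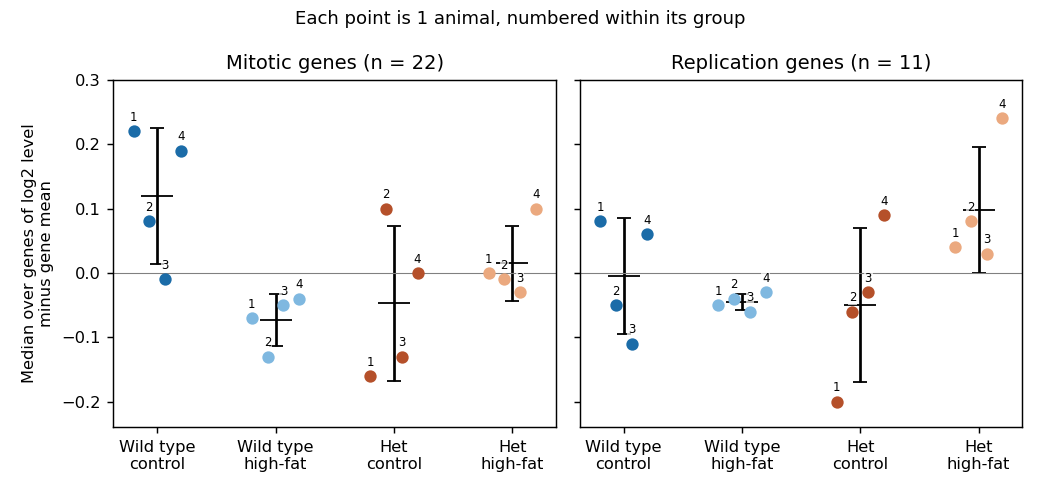
Median over the 22 mitotic genes (left) and 11 replication genes (right) of each animal's log2 level minus the gene's mean over all 16 animals. Each point is 1 animal, numbered within its group, and bars are the mean ± SD of 4 animals: mitotic genes average 0.12 ± 0.11 in wild-type control livers and replication genes 0.10 ± 0.10 in heterozygous high-fat livers.

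On the high-fat diet, wild-type livers carried lower values of every mitotic member, and none of the 36 members was called. All 22 mitotic differences were below 0, from -0.49 to -0.03, with a median of -0.16, while the median over all genes was -0.01 and 56.0% of all genes were lower in value. The 11 replication members had a median of -0.07, and 8 of them were below 0. The limma test, adjusted by Benjamini-Hochberg over all genes, called 0.0% of genes at an adjusted p under 0.05. At an unadjusted p under 0.05, 10 of 36 members were lower and 0 higher, against 2.90% and 3.53% of all genes.

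Mki67, the antigen used to mark dividing cells, read 8.23, 7.97, 7.67 and 8.21 in the wild-type control animals and 7.51, 7.20, 7.66 and 7.83 in the wild-type high-fat animals. All high-fat animals but number 4 lay below the lowest control animal, and the groups overlapped; the difference was -0.47 (SE 0.14, limma adjusted p = 0.476). Ccna2, the cyclin that works from S phase into mitosis, read 8.12, 7.81, 7.52 and 8.16 in the wild-type control animals and 7.39, 7.39, 7.52 and 7.49 in the wild-type high-fat animals. The groups did not overlap, though control animal 3 and high-fat animal 3 differed by less than the last digit printed, and the difference was -0.46 (SE 0.13, limma adjusted p = 0.395). Ccnb2, a B-type cyclin that activates Cdk1 for entry into mitosis, read 8.60, 8.51, 8.24 and 8.98 in the wild-type control animals and 8.18, 8.13, 8.10 and 7.94 in the wild-type high-fat animals. Those groups did not overlap either, with a difference of -0.49 (SE 0.14, limma adjusted p = 0.395).

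Cdk1, the kinase of those cyclins, read 8.77, 8.55, 8.30 and 8.84 in the wild-type control animals and 8.31, 8.24, 8.35 and 8.19 in the wild-type high-fat animals. Control animal 3 lay within the high-fat group and the other 3 control animals above it, with a difference of -0.35 (SE 0.11, limma adjusted p = 0.505). Top2a, the topoisomerase that untangles replicated chromosomes, read 7.28, 7.14, 6.74 and 7.36 in the wild-type control animals and 6.84, 6.55, 6.92 and 7.15 in the wild-type high-fat animals. Its groups overlapped, with a difference of -0.26 (SE 0.13), and a second probe set of Top2a with a lower mean level (4.12) gave 0.14. Plk1, a mitotic kinase, differed by -0.37 (SE 0.10, limma adjusted p = 0.428). Beside Ccna2 and Ccnb2, the groups did not overlap for Bub1, a kinase of the spindle checkpoint, Tpx2 and Prc1, which organise spindle microtubules, the helicase genes Mcm3 and Cdc45, and Ccnd1. That makes 8 of 36 members lower with no overlap and 0 higher, against 5.0% and 3.51% of all genes. Among them Bub1, Tpx2 and Prc1 did not pass the filter on low values, with mean levels of 6.41, 6.86 and 6.79.

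The remaining mitotic members were also compared between the diets in wild type. Aurkb, a kinase of chromosome alignment and cytokinesis, stood at -0.34 (SE 0.11, limma adjusted p = 0.578), and Nusap1, a spindle protein, at -0.19 (SE 0.08). Mad2l1 stood at -0.10 and Kif11 at -0.09. The other 9 (Cdc20, Aurka, Bub1b, Ttk, Kif20a, Birc5, Foxm1, Cenpe and Cenpf) lay between -0.17 for Foxm1 and -0.03 for Ttk. By diet in heterozygotes these 9 lay between -0.10 for Aurka and 0.13 for Kif20a, and by genotype on control diet between -0.24 for Kif20a and 0.04 for Cdc20.

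Only title number 46 appears in the sample titles of both diets, on wild-type control animal 1 and wild-type high-fat animal 2, and the sources used here do not say what it marks. Between those 2 animals all 22 mitotic genes were lower on high-fat diet, with a median of -0.29, as were 10 of 11 replication genes (median -0.12), beside a median of -0.03 over all genes.

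Lymphocyte markers were lower alongside the mitotic genes in this comparison. All 7 B cell markers were lower in value (median -0.19), and their mean level was 7.32 to 7.46 in wild-type control animals and 7.08 to 7.24 in wild-type high-fat animals, which did not overlap. Of 8 T cell markers 6 were lower (median -0.14), with a mean level of 7.42 to 7.43 against 7.26 to 7.32. All 9 endothelial markers were lower too (median -0.14), with mean levels of 10.40 to 10.53 and 10.11 to 10.47. Erythroid precursor markers had mean levels of 7.94 to 7.98 and 7.88 to 8.04. Other lists leaned lower as well: 8 of 9 neutrophil (median -0.05), 8 of 10 macrophage (median -0.02) and 4 of 5 bile duct markers (median -0.11). Of 8 stellate markers 4 were lower and 4 higher (median 0.0). None of these markers was called, and their part in the result was not tested.

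In heterozygous livers the high-fat diet went with higher values of the helicase and clamp genes, and again no member was called, while 2.22% of all genes were. The median over 11 replication members was 0.18, with 8 higher in value, and that over 22 mitotic members was 0.06, with 14 higher, beside -0.05 over all genes, of which 40.5% were higher. These medians were 0.16 with 9 higher and 0.10 with 19 higher without heterozygous control animal 2. At an unadjusted p under 0.05, 8 members were higher and 3 lower of 36, against 13.9% and 17.7% of all genes. Leaving out that animal gave 9 higher and 2 lower, and moved the all-gene values too: the median to -0.02, the genes at an unadjusted p under 0.05 from 6298 to 3730, and those called from 442 to 174.

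Pcna read 10.40, 10.04, 10.61 and 10.87 in the heterozygous control animals and 10.92, 10.93, 10.75 and 10.97 in the heterozygous high-fat animals. Control animals 1, 2 and 3 lay below all high-fat animals, animal 2 the lowest, and the difference was 0.41 (SE 0.12, limma adjusted p = 0.068), or 0.26 (SE 0.09, limma adjusted p = 0.124) without animal 2. Its other probe set gave 0.41 as well. Mad2l1, a protein of the spindle checkpoint, read 8.28, 7.52, 8.25 and 8.77 in the heterozygous control animals and 8.92, 8.91, 8.62 and 9.01 in the heterozygous high-fat animals. Control animal 2 was far below the others, and the difference of 0.66 (SE 0.17, limma adjusted p = 0.052) was 0.43 (SE 0.11, limma adjusted p = 0.0705) without it.

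Mcm5, a subunit of the helicase ring, read 8.42, 8.55, 8.53 and 8.74 in the heterozygous control animals and 8.77, 8.80, 8.77 and 8.85 in the heterozygous high-fat animals. The groups did not overlap, and the difference was 0.24 (SE 0.07, limma adjusted p = 0.0749). Mcm6, another subunit of the ring, read 7.61, 7.99, 7.90 and 8.42 in the heterozygous control animals and 8.23, 8.24, 8.12 and 8.66 in the heterozygous high-fat animals. Control animal 4 was higher than 3 of the high-fat animals, so the groups overlapped, and the difference was 0.33 (SE 0.14, limma adjusted p = 0.135). Mcm2 read 8.46, 8.51, 8.53 and 8.60 in the heterozygous control animals and 8.60, 8.66, 8.72 and 8.93 in the heterozygous high-fat animals. Only control animal 4 reached the lowest high-fat level, and the difference was 0.20 (SE 0.07, limma adjusted p = 0.105). Mcm5 stood at 0.24, Mcm6 at 0.34 and Mcm2 at 0.19 without heterozygous control animal 2.

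Without heterozygous control animal 4, 7 members were called higher by diet in heterozygotes: Mcm4, Mcm5, Mcm6, Pcna, Kif11, Mad2l1 and Ccne2. In that fit 17.3% of all genes were called, and 9.37% were called higher. Kif11, a motor that separates spindle poles, differed by 0.29 (SE 0.10, limma adjusted p = 0.0845) with all animals and by 0.25 (limma adjusted p = 0.183) without animal 2. The groups did not overlap for Plk1, Kif11 and Mcm5, higher on high-fat diet, and Ccnd1, lower. That is 3 and 1 of 36 members, against 6.58% and 7.15% of all genes. Without animal 2 the counts were 4 (Aurkb added) and 1, against 7.48% and 8.29%. Kif11, with a mean level of 7.07, did not pass the filter on low values.

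Not all replication genes read higher. Cdc6 read 7.32, 7.66, 7.65 and 7.58 in the heterozygous control animals and 7.27, 7.27, 7.44 and 7.40 in the heterozygous high-fat animals. Control animals 2, 3 and 4 lay above all high-fat animals, with a difference of -0.21 (SE 0.09, limma adjusted p = 0.136). Rrm2 read 8.18, 8.42, 8.81 and 8.41 in the heterozygous control animals and 8.20, 8.11, 8.21 and 8.37 in the heterozygous high-fat animals. Control animal 1 lay within the high-fat group and the other 3 above it, with a difference of -0.23 (SE 0.11, limma adjusted p = 0.148). Without heterozygous control animal 2 the values were -0.17 for Cdc6 and -0.24 for Rrm2. Mcm7, another helicase subunit, differed by 0.18 (SE 0.09), and Tyms by 0.06 (SE 0.09); they stood at 0.13 and 0.0 without that animal.

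Macrophage markers were higher in this comparison: all 10 were higher in value (median 0.47) and 5 were called. Their mean level was 9.78 to 10.21 in heterozygous control and 10.29 to 10.65 in heterozygous high-fat animals. Of 9 endothelial markers 8 were higher in value (median 0.26), with mean levels of 9.83 to 10.39 and 10.29 to 10.41. Leaving out heterozygous control animal 2, 10 macrophage markers were higher (median 0.46, with 3 called) and 6 endothelial markers (median 0.15), and the control animals' mean levels began at 9.93 and 10.02. Of 8 stellate markers 6 were higher (median 0.07, with 1 called), or 4 (median 0.01, with 0 called) without that animal. All 5 bile duct markers were lower (median -0.23, or -0.19 without that animal). Of 7 B cell markers 4 were higher (median 0.05), or 6 (median 0.13) without that animal. Of 8 T cell markers 2 were higher (median -0.03), or 5 (median 0.05) without it. The part of these markers in the replication gene values was not tested.

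On control diet, heterozygous livers carried lower values of most mitotic genes than wild-type livers. The median over 22 mitotic members was -0.23, with 19 lower, or -0.25 with all 22 lower without heterozygous control animal 2. The median over 11 replication members was -0.03, and that over all genes 0.04, with 39.4% lower in value. No member and 0.0% of all genes were called. At an unadjusted p under 0.05, 13 of 36 members were lower and 0 higher, against 6.73% and 9.0% of all genes. Leaving out that animal gave 16 lower and 0 higher, while the genes at an unadjusted p under 0.05 went from 3135 to 1602 and the all-gene median to 0.01. This comparison shares the wild-type control animals with that of diet in wild type and the heterozygous control animals with that of diet in heterozygotes. All 7 comparisons rest on the same 4 group means, so their values are not independent.

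Mki67 read 7.16, 7.31, 7.34 and 7.62 in heterozygous control livers, all below the lowest wild-type control animal at 7.67, and the difference was -0.66 (SE 0.14, limma adjusted p = 0.279). Ccna2 read 7.13, 7.47, 7.32 and 7.58, where animal 4 overlapped wild-type control animal 3, and the difference was -0.53 (SE 0.13, limma adjusted p = 0.279). Ccnb2 read 7.93, 7.87, 8.08 and 8.25, where animal 4 lay just above the lowest wild-type control value, and the difference was -0.55 (SE 0.14, limma adjusted p = 0.279). With all animals in, heterozygous control livers had for these 3 genes the lowest mean of the 4 groups. Without heterozygous control animal 2 the differences were -0.64, -0.56 and -0.49.

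Cdk1 read 8.28, 8.36, 8.16 and 8.43 in heterozygous control livers, with a difference of -0.31 (SE 0.11, limma adjusted p = 0.287). Top2a read 6.60, 6.91, 6.70 and 6.94, with a difference of -0.34 (SE 0.13, limma adjusted p = 0.291). Both overlapped the wild-type control group through its animal 3, and they stood at -0.33 and -0.38 without heterozygous control animal 2. Prc1 and Plk1 differed by -0.25 (SE 0.07) and -0.34 (SE 0.10), each with a limma adjusted p of 0.279, or by -0.32 and -0.37 without that animal. The 2 groups did not overlap for Mki67, Kif11 and Prc1, which is 3 of 36 members lower and 0 higher, against 2.10% and 4.03% of all genes. With that animal left out 7 members were lower with no overlap (Bub1b, Kif20a, Tpx2 and Cdc45 added) and 0 higher, against 2.97% and 5.15%, and Kif11 stood at -0.25. Among them Kif11, Prc1, Bub1b, Kif20a and Tpx2 did not pass the filter on low values, with mean levels from 6.79 (Prc1) to 7.12 (Kif20a).

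Among replication genes the value furthest from 0 on control diet was that of Pcna, at -0.33 (SE 0.12, limma adjusted p = 0.287), and it was -0.18 without heterozygous control animal 2. Wild-type control animals read 10.84, 10.84, 10.86 and 10.71 for Pcna. Mcm6 differed by -0.27 (SE 0.14), from wild-type control values of 8.39, 8.26, 8.0 and 8.34, and by -0.27 without animal 2 as well. Endothelial markers were lower here as well, all 9 in value (median -0.35), with mean levels of 9.83 to 10.39 in heterozygous against 10.40 to 10.53 in wild-type control animals, which did not overlap. Of 10 macrophage markers 7 were lower in value (median -0.32), with mean levels of 9.78 to 10.21 and 10.13 to 10.31. B cell markers read 7.17 to 7.59 and 7.32 to 7.46. The medians were -0.23 for endothelial markers (9 of 9 lower), -0.23 for macrophage markers (8 of 10 lower) and -0.15 for B cell markers (7 of 7 lower, at 7.17 to 7.28 in heterozygotes) without heterozygous control animal 2. Their part in the result was not tested.

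On high-fat diet, heterozygous livers carried higher values of the MCM helicase genes than wild-type livers, and no member was called, beside 0.00502% of all genes. The median over 11 replication members was 0.13, with 9 higher in value, and that over 22 mitotic members was 0.08, with 19 higher, beside 0.01 over all genes, of which 53.8% were higher. At an unadjusted p under 0.05, 4 members were higher and 0 lower, against 2.33% and 1.24% of all genes. The groups did not overlap for Cdk1, Plk1, Mcm2, Mcm3, Mcm4 and Mcm5, all higher in heterozygotes, which is 6 of 36 members against 2.18% of all genes. No member was lower with no overlap, against 1.57% of all genes.

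Mcm5 read 8.46, 8.47, 8.57 and 8.55 in wild-type high-fat livers, below every heterozygous high-fat value, and the difference was 0.29 (SE 0.07, limma adjusted p = 0.732). Mcm2 read 8.45, 8.55, 8.39 and 8.49 there, and the difference was 0.26 (SE 0.07, limma adjusted p = 0.874). Cdk1 read 8.44, 8.43, 8.37 and 8.76 in heterozygous high-fat livers, against at most 8.35 in wild-type high-fat livers, a difference of 0.23 (SE 0.11, limma adjusted p = 1.0). Each of these 3 genes separated the genotypes on this diet without passing the test over all genes.

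Plk1 and Mcm3, the other members with the smallest p, differed by 0.29 (SE 0.10) and 0.19 (SE 0.07), each with a limma adjusted p of 1.0. Without heterozygous high-fat animal 4 the replication median was 0.06. For the cyclins and Mki67, heterozygous high-fat values overlapped the wild-type ones: Mki67 read 7.53, 7.72, 7.52 and 7.78, Ccna2 7.53, 7.50, 7.60 and 7.82 and Ccnb2 8.12, 8.28, 8.17 and 8.63. Top2a read 6.96, 6.93, 6.84 and 7.0. B cell markers were higher in value in 7 of 7 (median 0.14) and macrophage markers in 10 of 10 (median 0.28), and their part in the result was not tested.

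The other replication values in the wild-type animals were close between diets. Mcm2 read 8.61, 8.46, 8.40 and 8.53 and Mcm5 8.69, 8.53, 8.43 and 8.70 in wild-type control livers. Mcm6 read 8.27, 8.14, 8.09 and 8.23 and Pcna 10.87, 10.74, 10.85 and 10.90 in wild-type high-fat livers. Both diets overlapped for these 4 genes. Cdc6 read 7.53, 7.26, 7.26 and 7.45 in the wild-type control animals and 7.12, 7.27, 7.42 and 7.33 in the wild-type high-fat animals, and Rrm2 read 8.59, 8.48, 8.37 and 8.69 in the wild-type control animals and 8.38, 8.36, 8.38 and 8.48 in the wild-type high-fat animals, again with overlap.

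**Figure D3:**
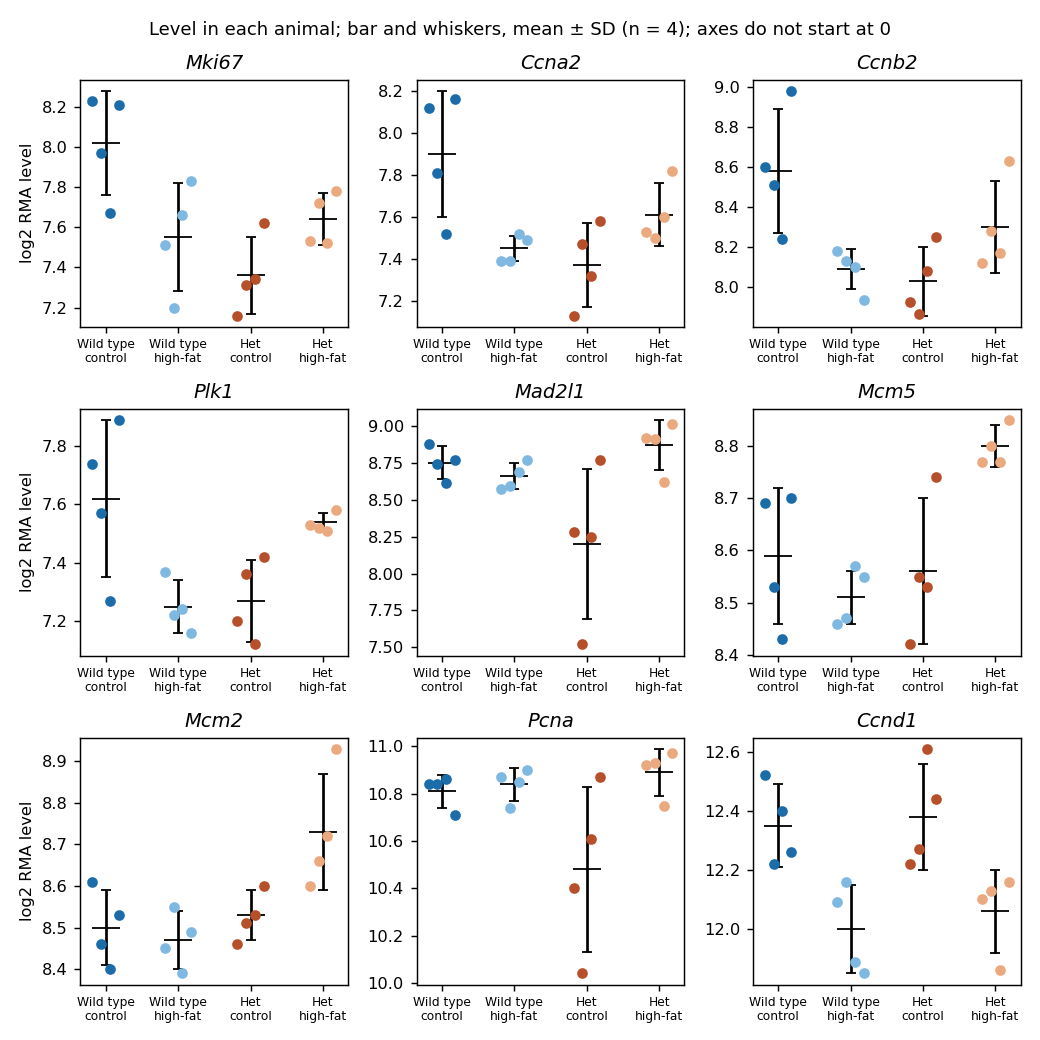
Log2 level of selected mitotic, replication and G1 members in each of the 4 groups, where each point is 1 animal and bars are the mean ± SD of 4. The axes do not start at 0. Mki67 ranges from 7.67 to 8.23 in wild-type control livers and from 7.16 to 7.62 in heterozygous control livers, and Mcm5 lies from 8.77 to 8.85 in heterozygous high-fat livers.

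The difference between the diet effects of the 2 genotypes was tested directly as an interaction (diet difference in heterozygotes minus that in wild type). No member and 0.0% of all genes were called. All 22 mitotic members had a value above 0 (median 0.26), as did 8 of 11 replication members (median 0.23), beside a median of -0.03 over all genes, of which 42.5% were above 0. The medians were 0.30 and 0.22 without heterozygous control animal 2, beside -0.01 over all genes. At an unadjusted p under 0.05, 16 of 36 members were above 0 and 0 below, against 4.16% and 3.97% of all genes. Leaving out that animal gave 18 above 0 and 0 below, with 8.57% of all genes in either direction.

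The members with the smallest p in this test were Plk1 at 0.63 (SE 0.15, limma adjusted p = 0.28), Ccnb2 at 0.76 (SE 0.19) and Ccna2 at 0.69 (SE 0.18), both with a limma adjusted p of 0.321. Mki67 stood at 0.75 (SE 0.20, limma adjusted p = 0.34) and Cdk1 at 0.54 (SE 0.15, limma adjusted p = 0.383). These 5 stood at 0.66, 0.71, 0.73, 0.73 and 0.56 without heterozygous control animal 2, and none was called. For Ccnb2 that is a diet difference of -0.49 in wild type and 0.27 in heterozygotes, and for Mki67 -0.47 and 0.28. Endothelial (9 of 9, median 0.36) and macrophage markers (10 of 10, median 0.60) were above 0 in the same test. Without that animal the counts were 8 of 9 (median 0.29) and 10 of 10 (median 0.53). B cell markers were above 0 in 7 of 7 (median 0.16, or 0.23 without that animal). T cell markers were above 0 in 4 of 8 (median 0.07), or 7 of 8 (median 0.16) without it. With all animals, 4 of 5 bile duct (median -0.14) and 6 of 9 neutrophil markers (median -0.06) were below 0. The part of these markers in the result was not tested.

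**Figure D4:**
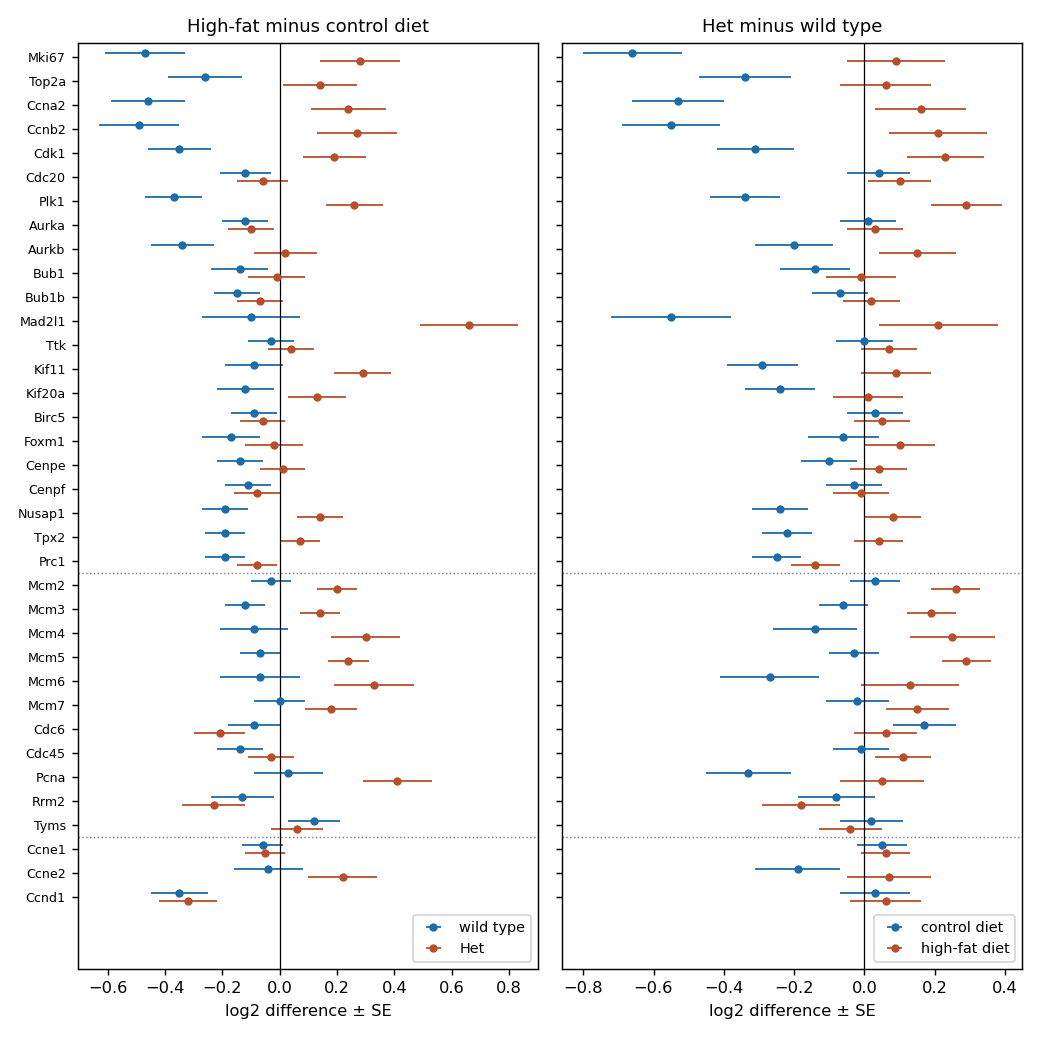
Fitted log2 difference ± SE of each member for high-fat minus control diet in each genotype (left) and for heterozygous (Het) minus wild type on each diet (right), with 4 animals per group. Mitotic genes lie above the upper dotted line, replication genes between the lines and G1 cyclins below; for Mki67 the diet difference is -0.47 in wild type and 0.28 in heterozygotes, while for Ccnd1 it is -0.35 and -0.32.

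Ccnd1, a D-type cyclin that acts in early G1, was the single member that passed the test in any of the 7 comparisons. Over both genotypes it fell by 0.34 on the high-fat diet (SE 0.07, limma adjusted p = 0.0259), to 0.792 times its level on control diet. In this comparison 1.86% of all genes were called, and 0.512% were called lower. Ccnd1 read 12.52, 12.22, 12.40 and 12.26 in the wild-type control animals and 12.09, 12.16, 11.89 and 11.85 in the wild-type high-fat animals. It read 12.22, 12.27, 12.61 and 12.44 in the heterozygous control animals and 12.10, 12.13, 11.86 and 12.16 in the heterozygous high-fat animals. In each genotype every high-fat animal lay below every control animal.

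Within a genotype Ccnd1 did not pass: the difference was -0.35 (SE 0.10, limma adjusted p = 0.447) in wild type and -0.32 (SE 0.10, limma adjusted p = 0.077) in heterozygotes, and the interaction was 0.03 (SE 0.14). The call over both genotypes was lost without any of 6 single animals. These were wild-type control 1 (limma adjusted p = 0.0633), heterozygous control 3 (0.0503), wild-type high-fat 3 and 4 (0.0635 and 0.0623), and heterozygous high-fat 3 and 4 (0.0577 and 0.0518). The value itself stayed between -0.36 and -0.30. It was -0.36 (limma adjusted p = 0.0151) without heterozygous control animal 2.

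The E-type cyclins partner Cdk2 at the start of S phase. Ccne1 read 8.08, 7.90, 8.05 and 8.03 in the wild-type control animals and 7.89, 8.06, 7.93 and 7.92 in the wild-type high-fat animals. It read 8.03, 7.94, 8.18 and 8.11 in the heterozygous control animals and 8.02, 8.15, 7.91 and 7.97 in the heterozygous high-fat animals, and every group overlapped every other. Ccne2 read 7.20, 7.22, 7.39 and 7.20 in the wild-type control animals and 7.28, 7.37, 7.21 and 7.01 in the wild-type high-fat animals. It read 6.99, 6.82, 7.01 and 7.43 in the heterozygous control animals and 7.29, 7.25, 7.08 and 7.52 in the heterozygous high-fat animals. All 4 groups of Ccne2 overlapped, and heterozygous control animal 4 stood above the rest of its group.

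Over both genotypes the other members with the smallest p for diet were Prc1 (-0.14, limma adjusted p = 0.128), Pcna (0.22, limma adjusted p = 0.141), Rrm2 (-0.18, limma adjusted p = 0.153) and Cdc6 (-0.15, limma adjusted p = 0.159). The medians were -0.08 for mitotic and 0.08 for replication members, beside -0.04 for all genes. For genotype over both diets no member was called, beside 0.00502% of all genes. Prc1 (-0.19, SE 0.05), Mki67 (-0.29), Mcm2 (0.14), Mcm5 (0.13) and Ccna2 (-0.18) had the smallest p, each with a limma adjusted p of 0.573. At an unadjusted p under 0.05 there were 2 members lower and 2 higher, against 7.76% of all genes in either direction.

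The rest of the machinery was followed in 4 further lists. Of 35 measured replication genes outside the members, 30 were higher in value on high-fat diet in heterozygotes (median 0.15) and 2 rose, in a comparison where 40.5% of all genes were higher and 2.22% were called. Pole, the catalytic subunit of the leading-strand polymerase, rose by 0.47 (SE 0.11, limma adjusted p = 0.0453). It read 6.89, 7.16, 7.20 and 7.42 in the heterozygous control animals and 7.56, 7.59, 7.48 and 7.93 in the heterozygous high-fat animals, with no overlap. Tk1, the thymidine kinase of the salvage route, rose by 0.40 (SE 0.10, limma adjusted p = 0.0479). It read 10.17, 9.75, 9.86 and 10.31 in the heterozygous control animals and 10.38, 10.46, 10.50 and 10.38 in the heterozygous high-fat animals, also with no overlap, and over both genotypes it rose by 0.32 (limma adjusted p = 0.0298). The count of 30 and the median of 0.15 include heterozygous control animal 2, the lowest of its group for Tk1 but not for Pole.

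Without heterozygous control animal 2, Pole stood at 0.47 (limma adjusted p = 0.0684) and Tk1 at 0.31 (limma adjusted p = 0.0807). The call of Pole in heterozygotes was lost in 13 of the 16 fits that each left out 1 animal, and that of Tk1 in 15. Over both genotypes Tk1 lost its call in 10 of those 16 fits and with all probe sets tested (limma adjusted p = 0.0606). In heterozygotes Tk1 stood at 0.27 (limma adjusted p = 0.0812) as the mean over its probe sets. After repeated quantile normalization it stood at 0.29 (limma adjusted p = 0.0689). With all probe sets tested both Pole and Tk1 had a limma adjusted p of 0.0699 in heterozygotes. From the 8 heterozygous arrays alone it was 0.215 for Pole and 0.23 for Tk1. On high-fat diet 30 of 35 were higher in value in heterozygotes than in wild type (median 0.10), against 53.8% of all genes, and 0 were called. In wild type the diet gave a median of -0.01, with 20 lower, against 56.0% of all genes.

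Of 44 other mitotic genes, 39 were lower in value by diet in wild type (median -0.10) and 34 by genotype on control diet (median -0.05, or -0.10 with 39 lower without heterozygous control animal 2). In the interaction 37 were above 0 (median 0.18), and 0 were called in any of these comparisons. Of all genes, 56.0% were lower by diet in wild type, 39.4% were lower by genotype on control diet and 42.5% were above 0 in the interaction. The smallest p by genotype on control diet belonged to Anln, a scaffold of the cleavage furrow, at -0.39 (SE 0.08, limma adjusted p = 0.279), followed by Kif23, a motor of the spindle midzone, at -0.32 (SE 0.09, limma adjusted p = 0.279). By diet in wild type it belonged to Cdca3, at -0.23 (SE 0.07, limma adjusted p = 0.524).

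Of 27 other G1 regulators 1 was called by diet in heterozygotes, where 2.22% of all genes were. Mycn, a MYC family transcription factor, fell by 0.39 on high-fat diet in heterozygotes (SE 0.09, limma adjusted p = 0.0372) and by 0.26 over both genotypes (limma adjusted p = 0.0452). It read 8.18, 8.18, 8.09 and 8.25 in the heterozygous control animals and 7.78, 7.76, 7.85 and 7.74 in the heterozygous high-fat animals, with no overlap. Without heterozygous control animal 2 the value in heterozygotes was -0.39 (limma adjusted p = 0.0559), and the call was lost in 10 of the 16 fits that left out 1 animal. Over both genotypes it was lost in 12 of them, after repeated quantile normalization (limma adjusted p = 0.107) and with all probe sets tested (0.0795). In heterozygotes it was also lost after that normalization (limma adjusted p = 0.0629), with all probe sets tested (0.0605) and from the 8 heterozygous arrays alone (0.107). Of 16 measured p53 targets 1 was called in heterozygotes, against the same 2.22% of all genes. Plk2, a kinase of the polo family, rose by 0.55 in heterozygotes (SE 0.12, limma adjusted p = 0.0352), or stood at 0.47 (limma adjusted p = 0.059) without heterozygous control animal 2. It read 7.74, 7.23, 7.47 and 7.48 in the heterozygous control animals and 8.02, 8.02, 7.79 and 8.29 in the heterozygous high-fat animals, with no overlap, and that call was lost in 5 of the 16 fits. The call of Plk2 was also lost with all probe sets tested (limma adjusted p = 0.0598) and from the 8 heterozygous arrays alone (0.175).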

How the data were processed

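Liver RNA of 16 mice was hybridised to Affymetrix MoGene 1.0 ST arrays, 1 array per animal. The deposited values are log2 levels per probe set. The submitters' processing notes name RMA and Affymetrix Expression Console, with no version. RMA includes quantile normalization, which is meant to remove a shift of all genes. In the deposited values heterozygous control animal 2 still had a median deviation of 0.12 over all genes and an interquartile range of 1.95. Of 35556 probe sets, 21789 carried 1 gene symbol on the platform, 1621 several and 12146 none. The probe set with the highest mean was kept per gene, leaving 19938 genes. The limma package (3.58.1, R 4.3.3) fitted the 4 group means to all 16 arrays, and 7 contrasts were tested with moderated statistics. P-values were adjusted by Benjamini-Hochberg over all genes; genes under 0.05 are those the text says were called. The fit was tested on simulated data. No test was run on class medians. A filter on low values (7.43 or more in at least 4 arrays), used as an alternative, kept 23 of 36 members. These were 11 of 11 replication, 10 of 22 mitotic and 2 of 3 G1 members, so the classes also differ in signal level. Named in the text were every member called, otherwise the 5 smallest p-values in a contrast, and up to 3 genes of each further list. The members and lists were chosen with earlier results of these data known. The sources name no batch of animals or arrays. The number of arrays limits the precision.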

Additional observations from a re-analysis of the deposited data

Results flagged for a closer look

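Among 144 sets of 4 animals (36 genes in 4 groups), 8 held an animal whose gap to the nearest other exceeded Dixon's 95% limit; chance flags about 1 in 20. In the wild-type control group these were Bub1 in animal 2 at 6.61 (others 6.47 to 6.48), Mcm4 in animal 1 at 8.01 (others 7.74 to 7.77), Pcna in animal 4 at 10.71 (others 10.84 to 10.86) and Ccne2 in animal 3 at 7.39 (others 7.2 to 7.22). In the wild-type high-fat group they were Foxm1 in animal 3 at 7.13 (others 7.02 to 7.03), and Mcm7 and Rrm2 in animal 4 at 8.87 (others 8.77 to 8.79) and 8.48 (others 8.36 to 8.38). In the heterozygous control group it was Bub1b in animal 2 at 7.34 (others 7.04 to 7.06), the array that stood apart. No set of the heterozygous high-fat group was among them.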

How the results depend on the processing

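Sign was followed for the class medians and, in each comparison, for the 5 members with the smallest p. Of these, 1 changed sign under the settings and left-out animals listed. The replication median by genotype on control diet, -0.03, ran from -0.08 (without wild-type control animal 3) to 0.01 (without heterozygous control animal 1). Members outside those 5 could change sign: by genotype on control diet Cdc20 went from 0.04 to -0.04 without heterozygous control animal 2. The all-gene medians turned sign under the filter on low values, from -0.05 to 0.01 by diet in heterozygotes, -0.04 to 0.01 over both genotypes and -0.03 to 0.01 in the interaction. Top2a's second probe set had the other sign by diet in wild type (0.14 against -0.26) and by genotype on high-fat diet (-0.08 against 0.06). It had the same sign by diet in heterozygotes and by genotype on control diet. Array weights gave heterozygous control animal 2 a weight of 0.07, against 0.557 to 2.269 for the other animals. Members called by diet in wild type numbered 0 in the reported fit and 4 with array weights (Aurkb, Ccna2, Mki67 and Plk1, all lower), with 219 genes in all (131 higher and 88 lower, 1.1%). By diet in heterozygotes 0 were called, against 1 with a trended and robust variance (Mad2l1), 4 with array weights, 1 after a repeated quantile normalization (Ccnd1), 1 with the filter on low values (Mad2l1), and 11 when the number in the sample titles entered as a random block (8 higher, 3 lower). Leaving out 1 animal gave 0 to 7. Over both genotypes 1 was called, against 0 with all probe sets tested and 5 with the block (18.6% of all genes), and 0 to 3 without 1 animal (3 without heterozygous control animal 4, with 8.8% of all genes). That block had a correlation of -0.372. With it 6938 of 19938 genes were called by diet in heterozygotes (2896 higher and 4042 lower), against 442 in the reported fit (300 higher and 142 lower) and 1067 with array weights. The trended and robust variance called 495 of 19938 genes there, and the filter on low values 558 of 14266. All probe sets gave 95 calls of 35556, and the 8 arrays alone gave 7 (2 higher and 5 lower). After the repeated quantile normalization 204 were higher and 167 lower. The mitotic median was -0.34 by diet in wild type, 0.21 by diet in heterozygotes, -0.33 by genotype on control diet and 0.58 in the interaction under the filter, which keeps 10 of 22 mitotic members. After the repeated quantile normalization it was 0.20 by diet in heterozygotes and -0.32 by genotype on control diet. Except for the filter and the larger table of probe sets, the cause was not tested. No paired analysis was possible because the animals of different groups share no label stated to pair them, and replicate numbers are only names.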
